A study of Mus musculus with 8 samples.

Results

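Chemokines and their receptors were picked out of the liver transcriptome of *Usp39*-HKO mice by gene symbol. Every gene was taken whose symbol begins with *Ccl*, *Cxcl*, *Ccr*, *Cxcr* or *Ackr* followed by a digit, together with *Cx3cl1*, *Cx3cr1* and *Xcr1*, and this gave 60 of the 55385 genes in the deposited table. They comprised 23 CC ligands, 13 CXC ligands, 1 CX3C ligand, 19 signalling receptors and 4 atypical receptors.

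Whole livers came from male C57BL/6J mice that were 5 weeks old and had been fasted for 16 h. The 4 control mice were littermates that the labels call WT. The 4 *Usp39*-HKO mice were *Usp39* fl/fl mice carrying *Alb-Cre*, in which Cre driven by the albumin promoter removes the loxP-flanked exon 2 of *Usp39*, a deubiquitinase family protein of the spliceosome, in hepatocytes. Each liver gave 1 library, no animals were pooled and the labels name no batch. Cells in which the albumin promoter was never active keep the exon, and whole liver holds such cells, among them leukocytes, endothelium and stellate cells. Whether cholangiocytes, which share a precursor with hepatocytes, had lost it was not given in the sources used here. The exact genotype of the controls at the floxed allele and at Cre was not given in the sources used here.

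Chemokines are small secreted proteins that steer the migration of leukocytes and other cells. They are held on matrix and cell surfaces, and migrating cells read them through G protein-coupled receptors that signal through Gi proteins. Ligands are sorted by the spacing of their first cysteines into CC, CXC, CX3C and XC families, and signalling receptors are named after the family they bind. Atypical receptors (Ackr) bind chemokines without Gi signalling, and some of them clear chemokines from the tissue. In liver, *Ccl2* and its receptor *Ccr2* are known for recruiting monocytes, *Cxcl12* and *Cxcr4* for retaining leukocytes and progenitor cells, and *Cxcl1*, *Cxcl2* and *Cxcl5* for recruiting neutrophils through *Cxcr2*.

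Counts on genes summed to between 8589636 and 10418450 per liver. Levels are given as FPKM, which are counts scaled to exon length and to the total of the liver, in the order of livers 1 to 4 of a group. Fold changes are log2 ratios of *Usp39*-HKO over control from edgeR's quasi-likelihood test on raw counts, with their standard error (SE) and a p-value adjusted over the 14340 genes that reached 0.5 FPKM in at least 4 of the 8 livers. The fit scales the libraries with TMM factors, which lay between 0.912 and 0.940 for controls and between 1.01 and 1.19 for *Usp39*-HKO, and FPKM do not hold them. On the log2(FPKM + 1) scale *Usp39*-HKO livers were therefore 0.172 above controls at the median gene, whereas its fitted log2 fold change was −0.0015. *Usp39* itself was at 9.35, 10.4, 8.76 and 9.78 FPKM in controls and at 8.37, 8.63, 8.70 and 8.07 FPKM in *Usp39*-HKO livers (log2 fold change −0.415, SE 0.111, adjusted p = 0.0212). The groups did not overlap, and the counts of the whole gene include exons outside the deletion. Hepatocyte markers summed to between 21400 and 23800 FPKM in controls and between 19500 and 24700 FPKM in *Usp39*-HKO livers, which is the tissue that the labels name. One control liver, control 4, held 779 FPKM of pancreas acinar markers in sum against 2.92 to 5.68 FPKM in the other livers, and counts without it are given beside the results.

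Of the 60 genes, 29 were tested. A further 27 were counted in at least 1 liver but stayed under the FPKM minimum, and 4 (*Ccl21a*, *Ccl21b*, *Ccl26* and *Ccl27b*) had no counts. *Ccl21a*, *Ccl21b* and *Ccl27b* each have at least 1 transcript that is entirely shared with other annotated genes at an identity of at least 97%. The absence of counts therefore does not show that they were silent. Of the 29 genes tested, 18 reached the minimum in all 8 livers. *Ackr3* and *Cx3cr1* reached it in the 4 *Usp39*-HKO livers and in no control, and *Ccl2*, *Ccl4*, *Ccr2* and *Cx3cl1* reached it in those 4 and in 1 control. These 6 genes, which include 5 of the 9 called higher, therefore entered the test by being high in *Usp39*-HKO livers and had to differ to do so.

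For 45 of the 60 genes RefSeq (GRCm38.p6) gave a promoter, taken here as the 250 bases before the transcription start. Of the 10 genes that changed between genotypes, given below, 8 had one, and *Ccl2* and *Cxcl16* had none and were not searched. Promoters were searched on both strands for the letters GGANNTTCC, a short form of the site bound by NF-kB, and GAAANNGAA, a short form of the site bound by interferon regulatory factors. The first was in 3.59% of 32851 mouse promoters and in those of 7 chemokine system genes (*Ccl1*, *Ccl12*, *Ccr3*, *Cxcl1*, *Cxcl2*, *Cxcl3* and *Cxcl10*), of which *Cxcl1* and *Cxcl10* could be tested and neither was called. Without the minimum level, where 6.41% of 28412 genes were higher, *Cxcl2* was called higher (log2 fold change 2.02, edgeR adjusted p = 0.0255). *Ccl1*, *Ccl12*, *Ccr3* and *Cxcl3* were not called there. The second was in 7.13% of all promoters and in those of 8 chemokine system genes (*Ccl1*, *Ccl3*, *Ccl19*, *Ccr2*, *Cxcl9*, *Cxcl10*, *Cxcl14* and *Cxcr1*). Of these, *Ccr2* and *Cxcl14* rose, *Ccl3*, *Cxcl9* and *Cxcl10* were tested and not called, and the others could not be tested. The matches of the 2 motifs in *Ccl1* and *Cxcl10*, which hold both, do not overlap. Shown first are the windows of *Ccl6* and *Cxcl12*, which carried most of the ligand RNA and moved in opposite directions, and of *Cxcl14*, which rose. They are followed by *Cxcl1*, *Cxcl2* and *Cxcl10*, whose promoters hold the NF-kB letters and which were not called or were too low for the test. Each runs 5′ to 3′ on the strand of the gene and ends before the first annotated exon, and capitals mark a motif match.
*Ccl6* (chr11:83593088-83593267, minus strand): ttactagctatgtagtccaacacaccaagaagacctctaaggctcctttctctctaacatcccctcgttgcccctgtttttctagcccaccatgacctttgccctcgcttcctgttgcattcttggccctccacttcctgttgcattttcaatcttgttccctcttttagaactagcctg
*Cxcl12* (chr6:117168355-117168534, plus strand): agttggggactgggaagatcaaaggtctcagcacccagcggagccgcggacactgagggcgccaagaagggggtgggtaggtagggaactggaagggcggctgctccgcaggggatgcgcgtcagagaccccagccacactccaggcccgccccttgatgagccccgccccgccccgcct
*Cxcl14* (chr13:56296552-56296731, minus strand): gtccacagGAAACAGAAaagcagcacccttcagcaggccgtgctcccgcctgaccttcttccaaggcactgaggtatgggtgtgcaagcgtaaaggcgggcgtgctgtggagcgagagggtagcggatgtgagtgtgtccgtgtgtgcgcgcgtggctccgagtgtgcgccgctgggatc
*Cxcl1* (chr5:90891065-90891240, plus strand): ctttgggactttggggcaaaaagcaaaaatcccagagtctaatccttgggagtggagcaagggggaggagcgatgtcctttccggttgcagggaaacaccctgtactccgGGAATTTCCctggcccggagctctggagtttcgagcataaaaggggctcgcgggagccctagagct
*Cxcl2* (chr5:90903719-90903870, plus strand): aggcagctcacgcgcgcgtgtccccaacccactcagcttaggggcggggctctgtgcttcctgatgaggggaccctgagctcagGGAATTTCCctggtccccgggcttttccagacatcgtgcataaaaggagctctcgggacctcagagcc
*Cxcl10* (chr5:92348890-92349069, minus strand): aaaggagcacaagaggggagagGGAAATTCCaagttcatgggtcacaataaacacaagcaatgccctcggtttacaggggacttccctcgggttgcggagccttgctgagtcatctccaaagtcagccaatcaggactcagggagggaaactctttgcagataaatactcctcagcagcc
The *Ccl6* and *Cxcl12* windows hold neither motif. The match of *Cxcl14* begins 172 bases before the start, those of *Cxcl1*, *Cxcl2* and *Cxcl10* begin 70, 96 and 158 bases before it, and the interferon-type match of *Cxcl10*, 213 bases before it, lies outside the window printed. A match describes letters and does not show binding, and no match says only that these letters are not there.

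At an adjusted p under 0.05, 9 of the 29 genes were higher and 1 was lower in *Usp39*-HKO livers. The higher genes were the ligands *Ccl2*, *Ccl6*, *Cxcl14*, *Cxcl16* and *Cx3cl1* and the receptors *Ccr2*, *Cx3cr1*, *Cxcr4* and *Ackr3*, and the lower gene was *Cxcl12*. Among all 14340 genes tested, 10.9% were higher and 11.6% were lower by the same rule. The median log2 fold change was 0.51 over the 29 genes and −0.0015 over all genes. The 9 higher genes and the median of 0.51 depended on the minimum level. With 0.5 FPKM required in all 8 livers, 18 of the genes were tested and 3 of them (*Ccl6*, *Cxcl16* and *Cxcr4*) were higher. The median log2 fold change of the 18 was 0.186. Without control 4, 7 of the 29 were higher and 1 was lower. The shares of all genes called in these fits are not given here.

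**Figure D1:**
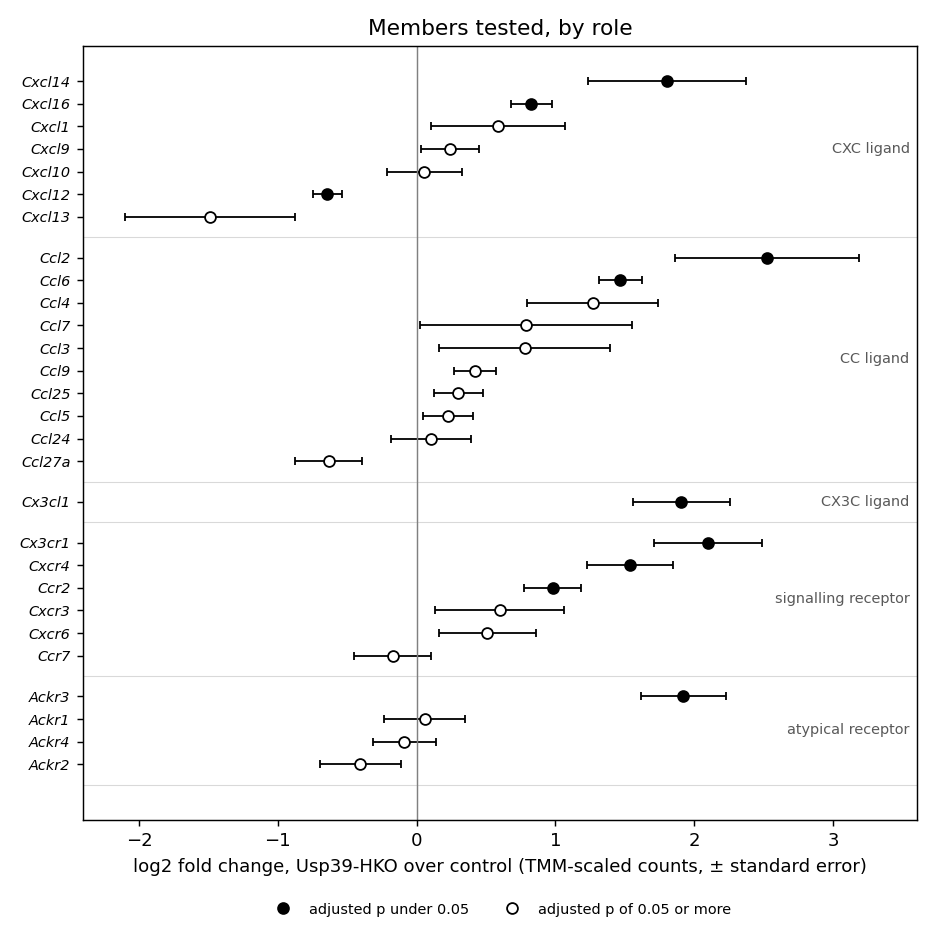
Log2 fold changes between the genotypes (*Usp39*-HKO over control) for 28 of the 29 chemokine and receptor genes tested, grouped by role, with horizontal bars for 1 standard error. Filled points have an adjusted p under 0.05; 9 of them lie to the right of 0 and *Cxcl12* alone lies to the left.

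By levels alone, 11 of the 29 genes had every *Usp39*-HKO liver above every control in FPKM and 1 (*Cxcl12*) had every one below. Over all genes tested, 23.9% were without overlap in the first direction and 4.81% in the second. The 11 include the 6 genes that reached the minimum level in all *Usp39*-HKO livers and in at most 1 control. For *Ackr3* and *Cx3cr1*, which reached it in no control, entry to the test fixed the lack of overlap. For *Ccl2*, *Ccl4*, *Ccr2* and *Cx3cl1* only 1 control could overlap. On CPM (counts scaled to the library total) with TMM-scaled totals, a scale chosen after the data were seen, 9 and 1 genes did not overlap, against 11.9% and 12.9% of all genes tested. Across the 9 higher genes, liver *Usp39*-HKO 4 held the highest *Usp39*-HKO value in 7 and liver 3 in 2, while liver 1 held the lowest in 8 and liver 2 in 1. These ranks are on FPKM, which do not hold the TMM factors of 1.01 for liver 1 and 1.19 for liver 4. The same ranks over all genes are not given here.

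**Figure D2:**
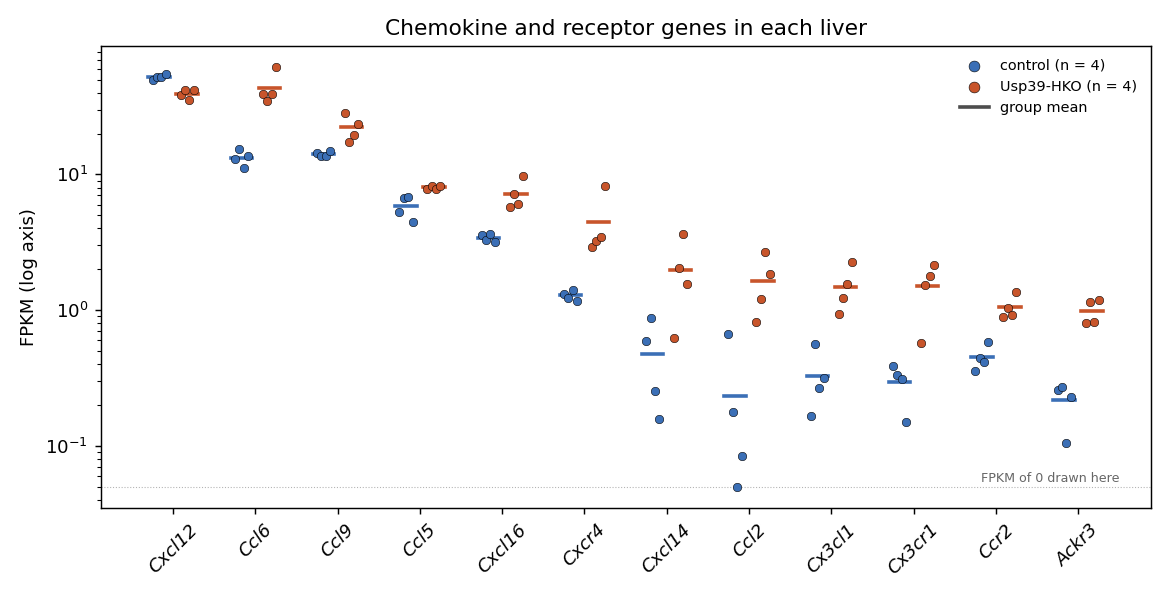
FPKM in each of the 8 livers (points, log axis) for the 10 genes that changed and for *Ccl9* and *Ccl5*, which complete the 5 highest levels, with a line at each group mean of 4 livers. *Cxcl12* is the 1 gene with all *Usp39*-HKO points below the controls, and *Cxcl14* is the 1 gene shown whose groups overlap.

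*Cxcl12*, the ligand of *Cxcr4* and *Ackr3*, had the highest mean level of all 60 genes and fell. It was at 49.2, 52.3, 51.9 and 55.1 FPKM in controls and at 38.6, 41.7, 35.2 and 41.7 FPKM in *Usp39*-HKO livers. Every *Usp39*-HKO liver was below every control, although the median gene was shifted upward on this scale. The log2 fold change was −0.64 (SE 0.10, adjusted p = 0.00203), and *Cxcl12* was past the threshold under all 15 alternative settings. *Cxcl12* (ENSMUSG00000061353) lies on the plus strand of chromosome 6 from 117168535 to 117181367, and no other annotated exon overlaps it.

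*Cxcr4*, the signalling receptor of *Cxcl12*, rose. Its FPKM was 1.33, 1.23, 1.42 and 1.17 in controls and 2.90, 3.26, 3.48 and 8.28 in *Usp39*-HKO livers. All *Usp39*-HKO livers were above the controls, and liver 4 stood apart from the other three. The log2 fold change was 1.54 (SE 0.31, adjusted p = 0.00602), and the highest adjusted p with 1 liver left out was 0.0247. Divided by *Cxcl12*, the FPKM of *Cxcr4* was between 0.0212 and 0.0273 in controls and between 0.0751 and 0.198 in *Usp39*-HKO livers.

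*Ackr3*, which takes up *Cxcl12* and clears it, also rose. It was at 0.260, 0.271, 0.104 and 0.229 FPKM in controls and at 0.799, 1.14, 0.814 and 1.20 FPKM in *Usp39*-HKO livers, with no overlap (log2 fold change 1.92, SE 0.31, adjusted p = 0.00206). No control reached the minimum level for the test, so the lack of overlap was fixed by the entry of *Ackr3* to it. The level was low in both groups, with 157 counts over the 8 livers. The ligand and both of its receptors thus changed in opposite directions, each in a comparison of the same 8 livers.

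*Cx3cl1*, a membrane-bound ligand that can be shed, and *Cx3cr1*, its receptor on monocytes and macrophages, both rose. *Cx3cl1* was at 0.166, 0.565, 0.267 and 0.318 FPKM in controls and at 0.943, 1.22, 1.55 and 2.25 FPKM in *Usp39*-HKO livers (log2 fold change 1.91, SE 0.35, adjusted p = 0.00382). *Cx3cr1* was at 0.387, 0.336, 0.310 and 0.149 FPKM in controls and at 0.571, 1.52, 1.79 and 2.15 FPKM in *Usp39*-HKO livers (log2 fold change 2.10, SE 0.39, adjusted p = 0.00405). Neither gene overlapped between the groups, although *Usp39*-HKO liver 1 lay close to the controls for *Cx3cr1*. For *Cx3cr1* the lack of overlap was fixed by its entry to the test, since no control reached the minimum level. For *Cx3cl1* only control 2 reached it, so the other controls could not overlap. With any 1 liver left out, the highest adjusted p was 0.0171 for *Cx3cl1* and 0.0164 for *Cx3cr1*.

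*Ccl2*, the main monocyte chemoattractant, rose from near the detection limit. It was at 0.670, 0.177, 0 and 0.0843 FPKM in controls and at 0.814, 1.21, 2.67 and 1.85 FPKM in *Usp39*-HKO livers. The groups did not overlap, but the highest control lay close to the lowest *Usp39*-HKO liver, and the gene had 82 counts over all livers. Only control 1 reached the minimum level for the test, so the other controls could not overlap. The log2 fold change was 2.53 (SE 0.66, adjusted p = 0.0192). The call was lost without control 4 (adjusted p = 0.0631) and without *Usp39*-HKO 3 (adjusted p = 0.0512).

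*Ccr2*, the receptor of *Ccl2* on monocytes, was at 0.354, 0.448, 0.413 and 0.582 FPKM in controls and at 0.898, 1.04, 0.915 and 1.36 FPKM in *Usp39*-HKO livers. It rose without overlap (log2 fold change 0.98, SE 0.20, adjusted p = 0.00674), with a highest adjusted p of 0.0258 when 1 liver was left out. Only control 4 reached the minimum level for the test, so the other controls could not overlap. The other ligands of *Ccr2* were low. *Ccl7* had a log2 fold change of 0.79 (SE 0.76, adjusted p = 0.4998) on 25 counts, while *Ccl8* with 17 counts and *Ccl12* with 2 counts over all livers were not tested.

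*Ccl6*, a CC ligand of rodents that is made by macrophages and other myeloid cells, showed the largest change in FPKM of all 60 genes. It was at 12.98, 15.3, 11.1 and 13.7 FPKM in controls and at 38.9, 34.8, 38.9 and 61.9 FPKM in *Usp39*-HKO livers. All *Usp39*-HKO livers were above the controls, and liver 4 was the highest. The log2 fold change was 1.47 (SE 0.16, adjusted p = 0.000367), and the call held under all 15 alternative settings. *Ccl6* (ENSMUSG00000018927) lies on the minus strand of chromosome 11 from 83587882 to 83593087, next to *Ccl9*, and no other annotated exon overlaps it.

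*Ccl9*, the neighbour of *Ccl6* and like it a ligand of *Ccr1*, was at 14.3, 13.6, 13.7 and 14.9 FPKM in controls and at 28.3, 17.4, 19.6 and 23.4 FPKM in *Usp39*-HKO livers. The FPKM did not overlap, but relative to the median gene the log2 fold change was 0.42 (SE 0.15, adjusted p = 0.0654) and did not pass the threshold. *Ccl9* was called in 4 of 15 alternatives, among them edgeR without TMM factors (log2 fold change 0.65, adjusted p = 0.00665). In controls the 2 neighbours had similar levels, with 0.808 to 1.13 FPKM of *Ccl6* per FPKM of *Ccl9*, and in *Usp39*-HKO livers this ratio was 1.38 to 2.65. Of *Ccr1*, 4 to 7 counts per control and 10 to 14 counts per *Usp39*-HKO liver were found, and its FPKM was under the minimum for the test.

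The other genes of the same stretch of chromosome 11 encode further CC ligands. *Ccl5*, made by T and NK cells, was at 5.33, 6.73, 6.79 and 4.50 FPKM in controls and at 7.82, 8.17, 7.86 and 8.24 FPKM in *Usp39*-HKO livers. These levels did not overlap, but relative to the median gene the log2 fold change was 0.23 (SE 0.18, adjusted p = 0.407). *Ccl4* (log2 fold change 1.27, SE 0.47, adjusted p = 0.0751) and *Ccl3* (0.78, SE 0.61, adjusted p = 0.3997) rested on 40 and 31 counts.

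Summed over the 37 ligands, FPKM were between 105 and 116 in controls and between 135 and 178 in *Usp39*-HKO livers. *Cxcl12* made up 45.1% to 49.4% of the sum in controls and 23.5% to 30.8% in *Usp39*-HKO livers. *Ccl6* made up between 10.6% and 13.2% in controls and between 25.8% and 34.8% in *Usp39*-HKO livers. Per FPKM of *Cxcl12* there were 0.214 to 0.292 FPKM of *Ccl6* in controls and 0.836 to 1.48 FPKM in *Usp39*-HKO livers. These sums are dominated by the 3 highest ligands and describe RNA, not protein.

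**Figure D3:**
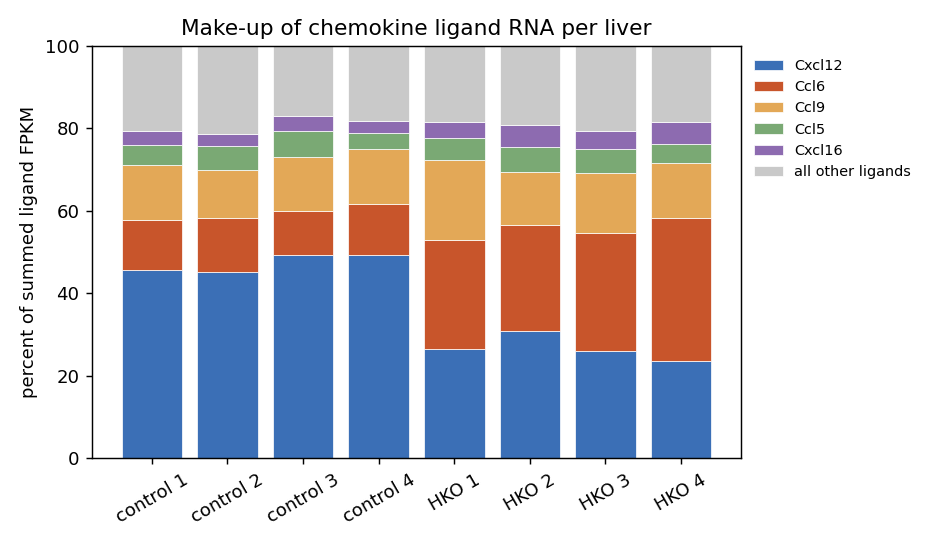
Percent of the summed FPKM of the 37 chemokine ligands taken by the 5 highest ligands and by all others, in each of the 8 livers. The *Cxcl12* part is between 45.1% and 49.4% in controls and between 23.5% and 30.8% in *Usp39*-HKO livers, and the *Ccl6* part is 10.6% to 13.2% and 25.8% to 34.8%.

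*Cxcl16*, a transmembrane ligand that binds *Cxcr6* on T and NKT cells and also takes up oxidised lipoprotein, rose. It was at 3.57, 3.27, 3.66 and 3.18 FPKM in controls and at 5.76, 7.21, 6.11 and 9.74 FPKM in *Usp39*-HKO livers, without overlap (log2 fold change 0.83, SE 0.15, adjusted p = 0.00332). It was past the threshold under all 15 alternatives. Of its exon bases 18.3% lie opposite exons of *Zmynd15*, and the counting was not stated to use strand, so reads there cannot be assigned with certainty. *Zmynd15* itself was at 0.889 to 1.20 FPKM in controls and 1.07 to 1.70 FPKM in *Usp39*-HKO livers (log2 fold change 0.34, adjusted p = 0.223). *Cxcr6* had a log2 fold change of 0.51 (SE 0.35, adjusted p = 0.329), and its groups overlapped.

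*Cxcl14*, a ligand found in many epithelia whose receptor is not settled, was called higher with overlapping groups. It was at 0.596, 0.883, 0.255 and 0.158 FPKM in controls and at 0.620, 2.04, 3.67 and 1.56 FPKM in *Usp39*-HKO livers. *Usp39*-HKO liver 1 lay among the controls. The log2 fold change was 1.80 (SE 0.57, adjusted p = 0.0418), and the call held in 8 of 14 alternatives. With single livers left out, it was lost for controls 1, 3 and 4 and for *Usp39*-HKO livers 2, 3 and 4, with an adjusted p of up to 0.121 (without *Usp39*-HKO 3).

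*Cxcl13*, the ligand that draws B cells through *Cxcr5*, had the most negative log2 fold change of the genes tested, without a call. It was at 3.88, 10.9, 4.25 and 5.51 FPKM in controls and at 6.53, 0.682, 0.729 and 2.20 FPKM in *Usp39*-HKO livers. *Usp39*-HKO liver 1 was above 3 of the controls and the other 3 *Usp39*-HKO livers were below all of them. The log2 fold change was −1.49 (SE 0.61, adjusted p = 0.106), and −2.61 (adjusted p = 0.00271) without *Usp39*-HKO 1. *Cxcr5* had 50 counts over the 8 livers and was not tested.

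The interferon-inducible ligands of *Cxcr3* did not pass the test. *Cxcl9* had a log2 fold change of 0.24 (SE 0.21, adjusted p = 0.455) and *Cxcl10* of 0.06 (SE 0.27, adjusted p = 0.911), with a sign for *Cxcl10* that turned without control 2 or *Usp39*-HKO 4. *Cxcl11*, annotated as a polymorphic pseudogene, had 115 counts, the most of any gene not tested, with 9 to 27 per control and 8 to 17 per *Usp39*-HKO liver. *Cxcr3* had a log2 fold change of 0.60 (SE 0.47, adjusted p = 0.392).

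The neutrophil axis was at low levels. *Cxcl1* had a log2 fold change of 0.59 (SE 0.48, adjusted p = 0.423), with 0.290 to 0.869 FPKM in controls and 0.335 to 1.54 FPKM in *Usp39*-HKO livers. *Cxcl2* had 5, 0, 2 and 1 counts in controls and 12, 7, 8 and 15 counts in *Usp39*-HKO livers, and *Cxcl5* had none in any control and 1, 2, 2 and 6 counts in *Usp39*-HKO livers. Both were under the minimum for the test. Without that minimum, where 6.41% of 28412 genes were higher and 6.75% lower, *Cxcl2* had an adjusted p of 0.0255 and *Cxcl5* of 0.0334. The 11 counts of *Cxcl5* allow no firm fold. *Cxcr2*, their receptor, had 5 to 9 counts per control and 32, 7, 5 and 14 counts in *Usp39*-HKO livers, so only livers 1 and 4 were above the controls.

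The remaining ligands and receptors that were tested gave no call. *Ccl24*, an eosinophil ligand that binds *Ccr3*, was among the 6 highest levels, with 3.24 to 5.55 FPKM in controls and 2.62 to 7.09 FPKM in *Usp39*-HKO livers (log2 fold change 0.10, SE 0.29, adjusted p = 0.836). *Ccl25*, the ligand of the gut homing receptor *Ccr9*, had a log2 fold change of 0.30 (SE 0.18, adjusted p = 0.253). *Ccl27a*, a ligand of *Ccr10*, had one of −0.63 (SE 0.24, adjusted p = 0.0837). At least 1 transcript of *Ccl27a* is entirely shared with *Ccl27b* and a further annotated gene, so its counts are uncertain. *Ccr7*, which guides dendritic cells and T cells towards lymph nodes, had a log2 fold change of −0.17 (SE 0.28, adjusted p = 0.706), and its ligand *Ccl19* had 4 counts. At least 1 transcript of *Ccl19* shares 94.9% of its bases with other annotated genes at 97% identity or more. The counts of *Ccl19* are therefore uncertain.

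Of the 4 atypical receptors, *Ackr3* alone passed the test with all 8 livers, and *Ackr2* passed it as lower without *Usp39*-HKO 2 (log2 fold change −0.79, adjusted p = 0.0337). *Ackr2*, which clears inflammatory CC ligands, had the highest mean level of the group, at 4.25, 3.16, 4.47 and 3.62 FPKM in controls and 1.68, 5.80, 3.35 and 2.94 FPKM in *Usp39*-HKO livers (log2 fold change −0.41, SE 0.29, adjusted p = 0.351). *Usp39*-HKO livers lay on both sides of the controls. *Ackr1* (log2 fold change 0.06, SE 0.29, adjusted p = 0.912) and *Ackr4* (−0.09, SE 0.23, adjusted p = 0.821) had signs that turned between settings, and 25.7% of the exon bases of *Ackr1* overlap *Cadm3* on the same strand.

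Of the 27 counted genes that were not tested, 13 had 10 counts or fewer over all 8 livers. In 4 of the 27 (*Ccr1*, *Ccl28*, *Cxcl2* and *Cxcl5*) every *Usp39*-HKO liver was above every control in FPKM and in none was it below. Of the 14072 counted genes that were not tested, 5.49% were without overlap in the first direction and 0.81% in the second, on FPKM that are not corrected for the shift of the median gene. *Ccl28*, a mucosal epithelial ligand, had 2 to 6 counts per control and 8 to 14 per *Usp39*-HKO liver. *Ccl17* and *Ccl22*, the ligands of *Ccr4*, had 9 and 36 counts, *Ccr4* had 10, and *Xcr1*, a receptor of cross-presenting dendritic cells, had 60, with 4 to 7 per control and 5 to 13 per *Usp39*-HKO liver.

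Chemokine system genes that do not carry such symbols were compared as well. Of 14 tested, 6 were higher and 2 lower, with a median log2 fold change of 0.41. The shares over all genes tested were 10.9% higher and 11.6% lower. *Cd74*, which binds the cytokine Mif and is also the invariant chain of MHC class II, rose from 69.6, 111, 80.1 and 69.7 FPKM in controls to 163, 164, 151 and 189 FPKM in *Usp39*-HKO livers (log2 fold change 0.77, SE 0.15, adjusted p = 0.00493). *Mif* itself had a log2 fold change of 0.0003 (SE 0.11, adjusted p = 0.999). The chemerin receptors *Cmklr1* (0.48, adjusted p = 0.0462) and *Ccrl2* (0.57, adjusted p = 0.0494) rose, as did *Gpr35*, *Cmtm3* and *Cmtm7*. *Dpp4*, a protease that cuts and inactivates Cxcl12 and other chemokines, fell from 25.9, 18.5, 25.2 and 26.7 FPKM to 15.1, 18.6, 14.3 and 16.0 FPKM (log2 fold change −0.82, SE 0.13, adjusted p = 0.00228), with *Usp39*-HKO liver 2 just above control 2. *Cmtm8* was the other gene that fell.

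A list of 30 genes tested held cytokines, receptors and transcription factors that induce chemokines. It also held inhibitors of that induction, such as *Il1rn*, *Nfkbia* and *Tnfaip3*. Of the 30, 6 were higher and 1 was lower, beside 10.9% and 11.6% of all genes tested. The median log2 fold change was 0.23. The higher genes were *Ifngr1*, *Ifngr2*, *Irf7*, *Irf8*, *Tlr4* and *Jun*, and the lower was *Il17rc*. The transcription factor *Jun* was at 32.0, 26.5, 26.4 and 38.9 FPKM in controls and at 38.0, 52.9, 73.7 and 75.4 FPKM in *Usp39*-HKO livers (log2 fold change 0.71, SE 0.19, adjusted p = 0.0212). The NF-kB subunits *Rela* (0.07, adjusted p = 0.652) and *Nfkb1* (−0.04, adjusted p = 0.796) and the cytokine *Il1b* (−0.10, adjusted p = 0.773) gave no call. *Tnf*, *Il6* and *Ifng* were too low to test, and *Il17a* was listed at 0 in all livers.

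Of 33 genes that carry signals from chemokine receptors to adhesion and movement, 13 were higher and 1 was lower. Over all genes tested these shares were 10.9% and 11.6%. The median log2 fold change of the 33 genes was 0.39. Those higher included the integrin chain *Itgb2* (0.79, SE 0.15, adjusted p = 0.00492), the GTPase *Rac2* (0.52, SE 0.12, adjusted p = 0.0108) and *Rgs2*, which damps G protein signals (0.99, SE 0.23, adjusted p = 0.0114). The lower gene was the phospholipase *Plcb3* (−0.42, SE 0.14, adjusted p = 0.0480). Several of these genes, *Itgb2* and *Rac2* among them, are expressed mainly in leukocytes.

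**Figure D4:**
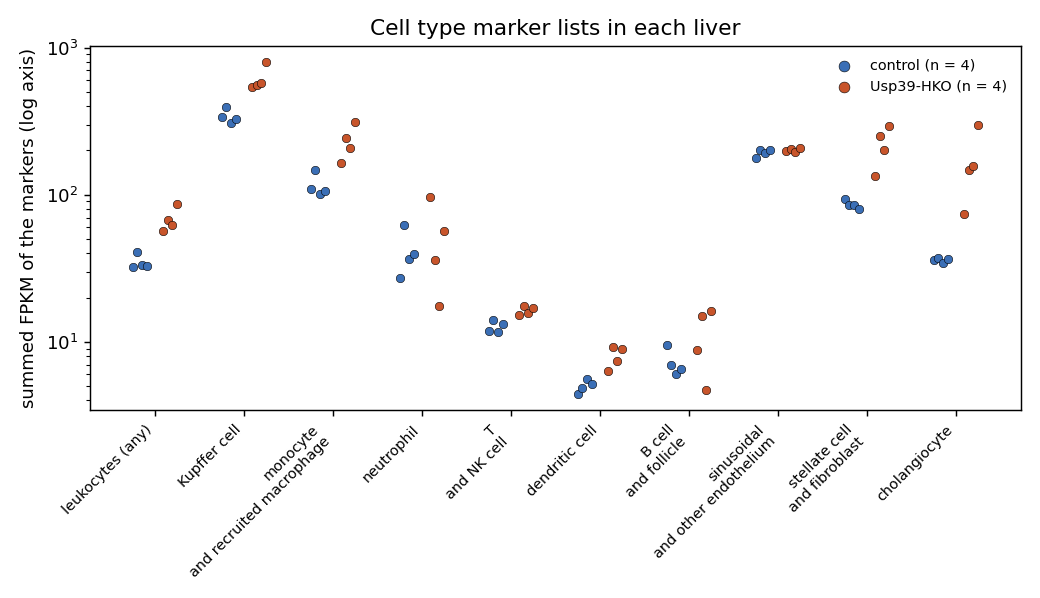
Summed FPKM of the markers of each cell type (log axis) in each of the 8 livers. The sums for neutrophils, B cells and endothelium overlap between genotypes, and those of the other 7 lists drawn are higher in every *Usp39*-HKO liver than in every control, on a scale that is not corrected for the shift of the median gene.

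Markers of leukocytes and macrophages were higher beside the receptors that these cells carry. In whole livers, more cells of a type and more RNA per cell cannot be told apart. All 5 general leukocyte markers tested were higher in *Usp39*-HKO livers, and their sum was 32.2 to 41.0 FPKM in controls and 56.4 to 85.9 FPKM in *Usp39*-HKO livers. Of the monocyte and recruited macrophage markers, 5 of 7 tested were higher (sum 101 to 148 FPKM in controls and 165 to 314 FPKM in *Usp39*-HKO livers). The 5 were *Cd68*, *Csf1r*, *Cd9*, *Itgax* and *Lyz2*. The monocyte marker *Ly6c2* (log2 fold change 0.059, adjusted p = 0.912) and *Chil3* (0.183, adjusted p = 0.815) gave no call. Of the Kupffer cell markers, which mark the resident macrophages of the liver, 4 of 10 were higher (307 to 398 FPKM and 543 to 793 FPKM). By the same rule, 10.9% of all genes tested were higher. *Cx3cr1*, *Ccr2*, *Cxcr4*, *Ccl2* and *Ccl6* are expressed in such cells, and the part of these lists in their changes was not tested.

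Lymphocyte, neutrophil and dendritic cell lists gave no calls in edgeR, where 10.9% of all genes tested were higher and 11.6% lower. None of 10 T and NK cell markers was called (sum 11.6 to 14.0 FPKM in controls and 15.1 to 17.5 FPKM in *Usp39*-HKO livers), and none of 4 B cell markers (6.05 to 9.51 FPKM and 4.70 to 16.1 FPKM), 4 dendritic cell markers (4.45 to 5.60 FPKM and 6.38 to 9.18 FPKM) or 7 neutrophil markers (27.0 to 62.5 FPKM and 17.5 to 96.8 FPKM) was called either. At an unadjusted p under 0.05, 1 neutrophil marker was higher and 1 was lower, and no marker of the other 3 lists passed. DESeq2 called 1 neutrophil marker higher, and limma on log2(FPKM + 1) called 1 neutrophil marker and 1 T and NK cell marker higher. The shares of all genes that DESeq2 and limma called are not given here. *Cxcr3*, *Cxcr6* and *Ccr7*, receptors of some of these cells, gave no call, and *Cxcr2* was too low to test. The receptors *Cxcr4*, *Ccr2* and *Cx3cr1*, also carried by leukocytes, were called higher.

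Among cells that make ligands, 10 of 14 stellate cell and fibroblast markers were higher (sum 79.9 to 92.9 FPKM in controls and 134 to 294 FPKM in *Usp39*-HKO livers), and so were 4 of 5 cholangiocyte markers (34.6 to 36.9 FPKM and 74.0 to 298 FPKM). Of 12 endothelial markers, none was higher and 2, *Lyve1* and *Stab2*, were lower (179 to 202 FPKM and 194 to 207 FPKM). Over all genes tested in edgeR, 10.9% were higher and 11.6% lower. In limma on log2(FPKM + 1), which is not scaled with TMM factors, 4 of the endothelial markers were higher and 1 was lower, and DESeq2 gave 1 and 2. The shares of all genes called by limma and DESeq2 are not given here. Stellate and endothelial cells are known sources of *Cxcl12*, cholangiocytes and endothelium of *Cx3cl1*, and endothelium expresses *Ackr3*. *Cxcl12* fell while the summed stellate markers were higher in every *Usp39*-HKO liver, and the part of these cells in the ligand changes was not tested. Of 12 hepatocyte markers, none was higher, also at an unadjusted p under 0.05, and 5 were lower (5 in DESeq2 and 2 in limma). No marker of any of these lists was at 0 in all livers.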

How the data were processed

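Liver RNA of 4 control and 4 *Usp39*-HKO mice was analysed from the 1 table deposited. Libraries were made with the NEBNext Ultra kit and sequenced paired-end on a NovaSeq. Per the submitters' processing notes, the authors used Trim Galore 0.6.1 and FastQC 0.11.9, used HISAT2 for alignment to mm10 and featureCounts for counting by gene. The annotation release, the strandedness and the handling of multi-mapped reads were not given in the sources used here. The authors deposited raw counts, without normalization, exon lengths and FPKM. The counts, lengths and totals gave the deposited FPKM back. Columns of the authors' own comparison (a mean level, log2 fold change, its error, statistic, p-values and a call) were not used.

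The table repeats 314 identifiers under a second symbol, and these were read once. *Ccl27a* also appears as *Ccl27b* in this way, beside a *Ccl27b* gene of its own. Genes with at least 0.5 FPKM in at least 4 of 8 livers were tested with edgeR 4.0.16 (quasi-likelihood test, TMM factors, no covariates, two-sided, Benjamini-Hochberg adjustment over 14340 genes). Standard errors were derived from each fold change and its F value. The common biological coefficient of variation was 0.179. A floor of 3 counts equalled 0.288 to 0.349 CPM (counts scaled to the library total), which covers counting error only. The test was run on simulated data first. Alternatives were DESeq2 1.42.0, limma 3.58.1 on log2(FPKM + 1), DESeq2's size factors, no TMM factors, 3 other filters, and each liver left out.

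GENCODE vM21 on GRCm38 held 99.6% of the identifiers and gave coordinates and exon overlap, and BLAST+ found shared sequence of at least 150 bases at 97% identity. Promoters came from RefSeq (GRCm38.p6). The genes and lists were chosen with earlier results of these data known. Genes that changed and the 5 highest by mean FPKM were given in full. Values of 1 receptor gene that was tested and counted, and of 1 gene of the signalling list, are not reported here. Each animal is 1 sample of its group, and replicate numbers are in order of deposit and pair nothing.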

Additional observations from a re-analysis of the deposited data

Results flagged for a closer look

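Each group of 4 livers was screened for a single liver set far apart from its group, by the gap to its nearest neighbour over the range of the group. Of 106 such groups, 10 held one, and chance gives about 1 in 20. Among the chemokine system genes, *Usp39*-HKO liver 4 stood above the other *Usp39*-HKO livers for *Ccl6* (61.9 FPKM), *Cxcr4* (8.28 FPKM) and *Cxcl10* (1.87 FPKM), and control 3 stood above the other controls for *Ccl4* (0.706 FPKM). The share of *Ccl9* in summed ligand FPKM was lowest in control 2 (11.7%).

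Among the lists, *Usp39*-HKO liver 4 was highest for Kupffer cell markers (793 FPKM in sum). Control 2 was highest among controls for general leukocyte markers (41.0 FPKM), for monocyte and recruited macrophage markers (148 FPKM) and for the chemokine system genes outside the symbol rule (443 FPKM). Control 4 held 779 FPKM of pancreas acinar markers. Without *Usp39*-HKO 4, *Ccl6* and *Cxcr4* were still called, and without control 4 the calls of *Ccl2* and *Cxcl14* were lost.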

How the results depend on the processing

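Settings changed the number of higher genes (9) most through the minimum level. It was 3 of 18 with 0.5 FPKM required in all 8 livers, which leaves fewer genes to test, and 8 to 12 under the other 6 settings. With 1 liver left out it was 7 to 10, with 7 both without control 4 and without *Usp39*-HKO 3. Among the alternative settings, the share of all genes called is given only for no filter, at 6.41% higher and 6.75% lower. The number of lower genes was 2 with no filter and 1 to 2 with 1 liver left out. The added gene was *Cxcl13* with no filter and without *Usp39*-HKO 1, *Ackr2* (log2 fold change −0.79) without *Usp39*-HKO 2 and *Ccl27a* (−0.79) without control 1. The median log2 fold change (0.511) was 0.186 with the all-liver filter, 0.348 with filterByExpr, 0.374 in limma, 0.758 without TMM factors, 0.631 with no filter and 0.392 to 0.707 with 1 liver left out, against an SD between livers of 0.068. In FPKM 11 of 29 genes were higher without overlap, against 23.9% of all genes tested, and CPM also gave 11. On TMM-scaled CPM it was 9 of 29, against 11.9%. With no filter it was 15 of 56 in FPKM, beside 23.9% of genes tested and 5.49% of counted genes not tested. In each case 1 gene was lower, against 4.81% (FPKM) and 12.9% (TMM-scaled CPM) of all genes tested. Over all alternatives, called genes kept their call in 135 of the fits that tested them and lost it in 8, all for *Ccl2* and *Cxcl14*. Genes without a call gained one in 13 fits and changed sign without one in 12. The sign changes were *Ccl24* (−0.0665 without *Usp39*-HKO 3 and −0.0253 without *Usp39*-HKO 4, up to 0.324 without another liver), *Cxcl10* (−0.0458 without *Usp39*-HKO 4 and −0.124 without control 2, up to 0.288), *Ackr1* (−0.106 without *Usp39*-HKO 2 and −0.054 without control 4, up to 0.202), *Ccr7* (0.0265 in limma and 0.0663 without TMM factors) and *Ackr4* (0.0834 in limma, 0.151 without TMM factors, 0.00918 without *Usp39*-HKO 3 and 0.0275 without control 1, down to −0.268), and the cause was not tested. No paired analysis was possible because the labels give no replicate numbers that groups share. Precision was limited for genes with few counts, and the 31 genes under the FPKM minimum had 0 to 115 counts each.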
